A study of Mus musculus with 18 samples.

Results

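Late differentiation after a GLI1 pulse was followed in mouse embryonic stem cells (cell line GLI1-FTA, strain A2Lox.cre) by comparing cells harvested at D12 with cells harvested at D8. The samples were chosen by their labels: 4 of the 18 sequenced samples, 2 at D8 (count libraries 14 and 18) and 2 at D12 (count libraries 10 and 20). All 4 had been exposed to doxycycline at 500 ng/ml to induce GLI1, starting at D5 and ending with a wash at D6, so that harvest came after the inducer had been removed. The reference for ordinary change over the same days was 4 samples of the same line that are labelled untreated, 2 at D8 (libraries 13 and 17) and 2 at D12 (libraries 19 and 9). No sample had doxycycline without induced GLI1, so the drug and the transcription factor cannot be told apart where pulsed and untreated cells are compared. The other 10 samples entered the expression filter, the scaling and the shared estimate of spread. A few of their levels at D5 and D6 are quoted. All samples come from 1 line, and nothing in the labels says that the samples of a group were grown apart, so each p-value covers the variation among these samples alone, which could be technical.

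GLI1 is the transcription factor that is itself switched on by Hedgehog signalling and that activates Hedgehog target genes. Stem cells differentiated toward heart pass from mesoderm through dividing cardiac progenitors to beating cardiomyocytes, which divide less and exchange fetal forms of contractile proteins for later forms. Maturing cardiomyocytes also draw less on glycolysis and more on fatty acids, while fibroblasts, smooth muscle and endothelium commonly arise beside them in the same cultures.

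Gli1 itself was low at both days. Its level was 0.925 and 1.45 CPM (counts scaled to a common library size) in D8 libraries 14 and 18 and 0.795 and 1.12 CPM in D12 libraries 10 and 20, the order in which libraries are given from here on. Untreated cells held 0.752 and 1.18 CPM at D8 and 0.902 and 0.808 CPM at D12. During the pulse, at D6, pulsed cells had 909 ± 134 CPM (SD, n = 3). From D8 to D12 the difference in Gli1 on the log2 scale was -0.30 ± 0.91 (SE; edgeR adjusted p = 0.831), and the groups overlapped.

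The 4 libraries held 18470785 to 22301324 counts each. The labels call both days immature cardiomyocytes, and all 7 defining cardiomyocyte markers (Tnnt2, Myh6, Actn2, Actc1, Myl7, Ttn, Nkx2-5) were detected in all 4 libraries, but at unequal levels. Their summed level was 10721 CPM in D8 library 14, 1025 CPM in D8 library 18, 5670 CPM in D12 library 10 and 2738 CPM in D12 library 20. The 2 D8 libraries thus enclosed the D12 pair, and they differed from each other with a chi-square of 122 per gene, against 43.4 for the D12 pair and 48.2 and 38.6 for the untreated pairs at D8 and D12. D8 library 18 also had more of the epicardial markers (252.9 CPM summed, against 93.0 in library 14) and of forkhead genes that Hedgehog signalling can induce, such as Foxf1 (listed as Foxf1a; 21.1 against 2.13 CPM). Single pulsed libraries were therefore left out in turn, and the counts of called list members without them are given with most of the lists. In bulk RNA, fewer cells of a type and less RNA per cell cannot be told apart.

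Of 14892 genes tested, 2374 (15.9%) were higher at D12 and 2611 (17.5%) were lower, at an edgeR adjusted p under 0.05, which is 4985 genes (33.5%) in all. Among these, 1095 were more than 2-fold higher and 1078 more than 2-fold lower. The genes that changed included cell cycle, cholesterol and embryonic timing genes among the falls, and matrix, stress-response and a few contractile and energy genes among the rises. Both D12 libraries lay above both D8 libraries for 4622 genes (31.0%), and below them for 4828 (32.4%). Of the 4985 genes called, 4968 had days that did not overlap, so a lack of overlap adds little to a call. The median difference over all genes tested was -0.02 on the log2 scale. Scaling to library size alone moved it to -0.13 and the split to 1908 higher and 3321 lower, and upper-quartile scaling gave 2057 and 3136. A fit on the 4 libraries alone called 0 genes (edgeR; smallest adjusted p 0.0524, with 4526 genes at an unadjusted p under 0.05), so the calls rest on a spread estimated from more libraries than these 4. A fit on the 8 libraries of D8 and D12 called 3802 genes and kept 3524 of the 4985. Without D12 library 10, 3086 genes passed.

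**Figure D1:**
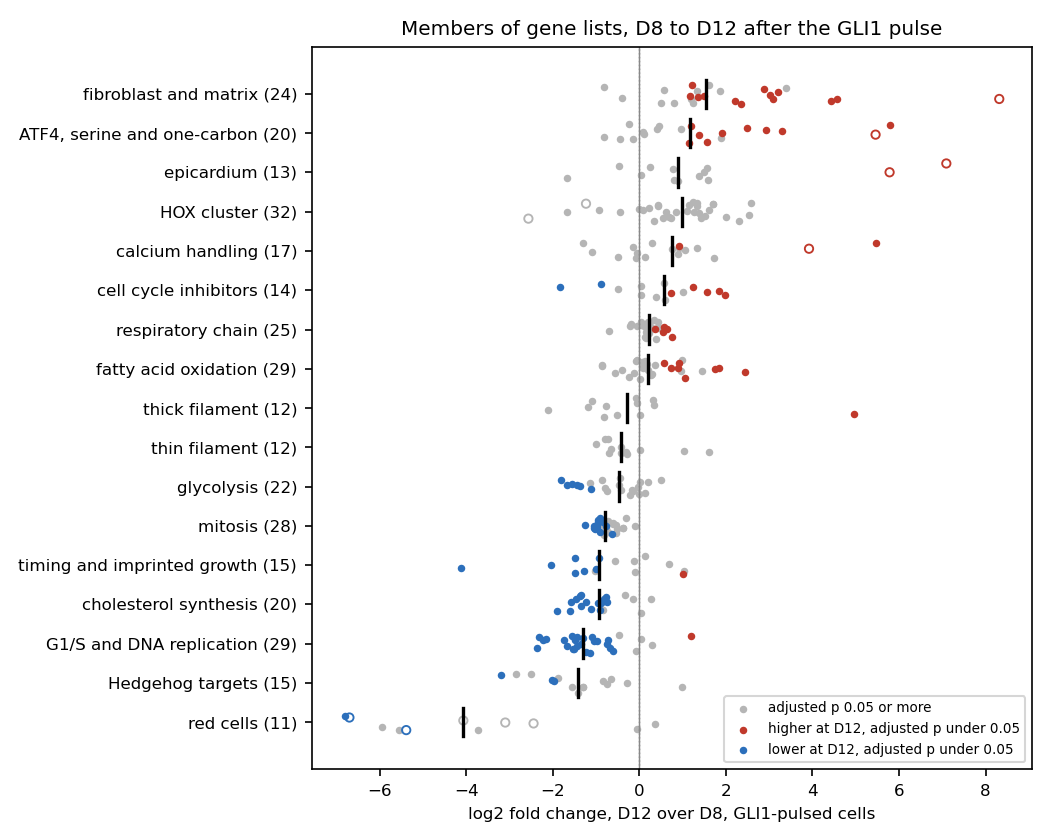
Difference from D8 to D12 in GLI1-pulsed cells (x axis, log2 fold change) for each tested member of 17 gene lists (number of members in brackets); colours mark members past an edgeR adjusted p of 0.05, black bars the list medians, and hollow points members with 3 or fewer counts in one group, whose position depends on the fit. All 28 mitosis genes sit below 0, while the members of the sarcomere lists spread around 0.

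Several of the genes that rose most make secreted or matrix proteins. Ogn, which encodes the small matrix proteoglycan osteoglycin, went from 0.0463 and 0.409 CPM at D8 to 22.5 and 57.9 CPM at D12 (log2 difference 7.42 ± 1.30; edgeR adjusted p = 0.000859). Mgp, an inhibitor of calcification in soft tissue, had 4.26 and 5.13 CPM and then 115 and 236 CPM (5.23 ± 0.52; edgeR adjusted p = 2.73e-05). The 12 largest rises were picked among genes whose days do not overlap, so that gap is no separate result. Pi15, a secreted peptidase inhibitor, Thbs2, a matricellular thrombospondin, Adamtsl3, a secreted matrix-associated protein, and Lox, the enzyme that cross-links collagen and elastin, were among the 12 largest rises, with log2 differences of 6.49, 5.02, 4.99 and 4.56. The 12 also held Pde1a (6.12), a calmodulin-dependent phosphodiesterase, Gpihbp1 (5.32), which holds lipoprotein lipase on capillary endothelium, and Casq2 and Myom2, which are described with the contractile and calcium handling genes.

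The largest falls included genes of embryonic cells. Hbb-y, an embryonic beta-type globin of the first red cells, dropped from 30.2 and 10.4 CPM to 0.17 and 0.179 CPM (log2 difference -6.81 ± 1.67; edgeR adjusted p = 0.00704). Tdgf1 (Cripto), the co-receptor through which Nodal acts in early embryos, had 65.0 and 15.3 CPM at D8 and 0.681 and 0.536 CPM at D12 (-6.04 ± 0.69; edgeR adjusted p = 5.67e-05). Has2, the hyaluronan synthase that makes the cardiac jelly of the early heart, had 299 and 132 CPM and then 21.1 and 23.5 CPM (-3.27 ± 0.41; edgeR adjusted p = 9.1e-05). These falls too were picked among genes whose days do not overlap. The remaining large falls were Nptx2 (-4.79), Lin28a (-4.11), Dpysl4 (-3.82), Igsf11 (-3.59), Fibcd1 (-3.44), Sh2b2 (-3.42), Itgb1bp2 (-3.36), Hapln3 (-3.23) and Igdcc3 (-3.20) on the log2 scale. Of these, Hapln3 had a mean of 464 CPM in pulsed and 3.54 CPM in untreated cells at D6 (n = 3 each). In untreated cells its change from D8 to D12 was -1.17 ± 0.88 (edgeR adjusted p = 0.322). The difference between its 2 changes did not pass (edgeR adjusted p = 0.9999), and the cause of its fall was not tested. The call of Hbb-y ended without D12 library 10 (edgeR adjusted p = 0.0601) or 20 (0.0560). That of Nptx2 ended without D8 library 14 (0.0762), and that of Hapln3, whose D8 libraries held 2.68 and 27.6 CPM, without D8 library 18 (0.178). Igsf11 (lost without libraries 18, 10 or 20, at 0.0868, 0.0678 and 0.109), Fibcd1 (without 18 or 10, at 0.0672 and 0.105) and Itgb1bp2 (without 14 or 10, at 0.228 and 0.0845) were also lost, all by edgeR.

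**Figure D2:**
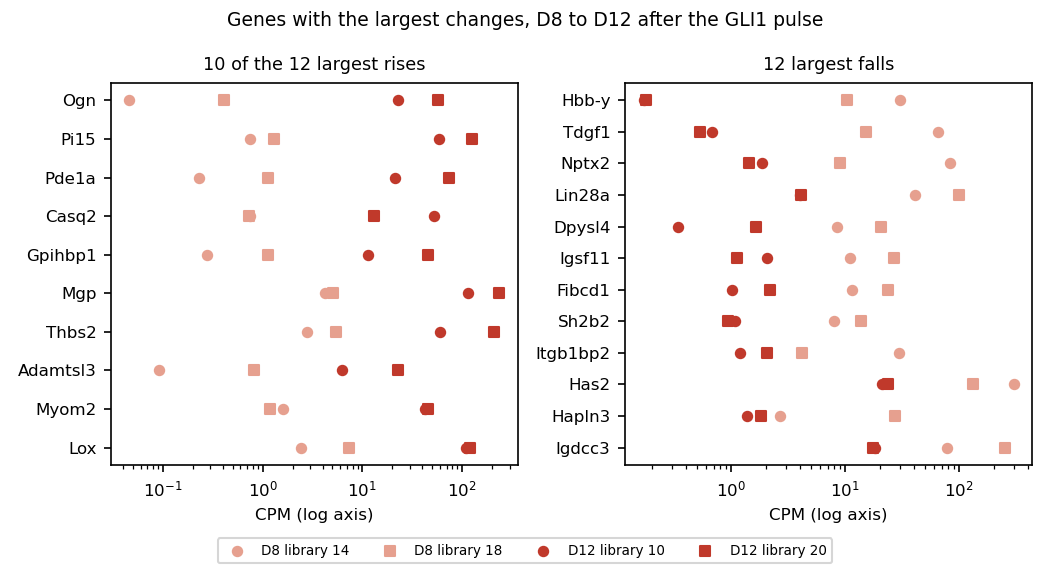
CPM on a log axis of 10 of the 12 genes with the largest rise (left) and the 12 with the largest fall (right) in the 4 GLI1-pulsed libraries, 1 point per library. The genes were picked among those whose D8 and D12 libraries do not overlap, so the gap between days is no separate result. D8 libraries 14 and 18 stand apart from each other most in Nptx2 and Hapln3.

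DNA replication genes fell almost as a whole list. Of 29 genes of the G1/S transition and DNA replication, 24 fell, 1 rose and 4 did not pass (86.2% called, beside 33.5% of all genes). The list's median was -1.30 against -0.02 for all genes. The summed level of the list was 2944 and 4252 CPM at D8 and 2444 and 2480 CPM at D12. Both D12 libraries were below both D8 libraries in 25 of the 29, beside 32.4% of all genes. Leaving out 1 pulsed library at a time left 18 to 24 members lower.

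Ccne2, the cyclin E that drives entry into S phase, had 25.2 and 32.3 CPM at D8 and 6.30 and 5.32 CPM at D12 (log2 difference -2.31 ± 0.18; edgeR adjusted p = 1.13e-05). Mcm2, a subunit of the replicative helicase, had 178 and 234 CPM and then 75.8 and 87.1 CPM (-1.34 ± 0.15; edgeR adjusted p = 4.02e-05). The flap endonuclease gene Fen1, which trims Okazaki fragments, had 50.0 and 75.6 CPM and then 19.3 and 18.1 CPM (-1.75 ± 0.21; edgeR adjusted p = 7.6e-05). These 3 genes were lower in each D12 library than in each D8 library. The 1 member that rose was Ccnd3, the cyclin D that is kept in many differentiated cells, with 276 and 243 CPM at D8 and 657 and 538 CPM at D12 (1.21 ± 0.12; edgeR adjusted p = 2.73e-05).

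The promoters of 2 of the genes that fell are shown because they hold the letters TTTNGCGC, a form of the site bound by E2F factors, which switch on replication genes. The windows are the 250 bases before the start of the RefSeq gene, in assembly GRCm38.p6, 5′ to 3′ on the gene's strand, and capitals mark the matches on either strand. Mcm6, another helicase subunit, lies on chr1:128359706-128359955 (minus strand), and the first and second of its 3 matches overlap each other on opposite strands. Pola1, the catalytic subunit of DNA polymerase alpha, lies on chrX:93632156-93632405 (minus strand), with 1 match. The bases just after the RefSeq start were found near the start of 1 GENCODE transcript of Pola1 and of 0 of Mcm6. The start used for Mcm6 is thus less sure.
Mcm6: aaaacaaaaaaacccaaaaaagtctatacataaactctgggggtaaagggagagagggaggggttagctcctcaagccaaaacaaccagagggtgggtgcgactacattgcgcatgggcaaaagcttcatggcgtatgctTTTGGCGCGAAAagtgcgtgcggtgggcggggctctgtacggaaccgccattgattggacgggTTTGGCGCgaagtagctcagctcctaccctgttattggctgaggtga
Pola1: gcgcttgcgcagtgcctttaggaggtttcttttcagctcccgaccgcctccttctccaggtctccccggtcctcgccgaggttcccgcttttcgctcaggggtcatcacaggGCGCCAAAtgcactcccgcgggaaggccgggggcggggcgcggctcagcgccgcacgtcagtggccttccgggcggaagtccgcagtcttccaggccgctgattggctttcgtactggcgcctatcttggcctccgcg

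Mcm6 had 155 and 238 CPM at D8 and 63.5 and 81.5 CPM at D12 (log2 difference -1.44 ± 0.21; edgeR adjusted p = 0.00028). Pola1 had 58.8 and 81.7 CPM and then 21.3 and 30.4 CPM (-1.44 ± 0.21; edgeR adjusted p = 0.000287). Neither gene's groups overlapped. In the RefSeq promoter table, which matched 22 of the 29 replication genes, 9 of 28 windows of the list (32.1%) held these letters, against 2.35% of the 13382 windows of tested genes. These windows run from 250 bases before to 50 bases after the start, a gene can have several, and a match in one is a description of its letters.

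Of 28 mitosis genes, 13 fell (46.4%, beside 17.5% of all genes), 0 rose and 15 did not pass. None of the 28 estimates was above 0 (median -0.80). The list summed to 3368 and 4778 CPM at D8 and 2007 and 2716 CPM at D12. Mad2l1, which holds cells at the spindle checkpoint, had 53.2 and 73.4 CPM at D8 and 31.1 and 33.3 CPM at D12 (log2 difference -0.97 ± 0.20; edgeR adjusted p = 0.00237). Both D12 libraries were below both D8 libraries. The kinase gene Bub1, of the same checkpoint, had 101 and 142 CPM and then 43.7 and 57.6 CPM (-1.26 ± 0.33; edgeR adjusted p = 0.00942). Ccnb1, the mitotic cyclin, had 37.9 and 48.2 CPM and then 20.4 and 24.2 CPM (-0.95 ± 0.28; edgeR adjusted p = 0.018), and Tpx2, a spindle assembly factor, a difference of -1.02 ± 0.30. The count of 13 fell to 1, in each case, without D8 library 18 or D12 library 10, and was 15 without D8 library 14. Without libraries 18 and 10 the edgeR adjusted p was 0.0748 and 0.0901 for Bub1, 0.116 and 0.123 for Ccnb1, and 0.151 and 0.136 for Tpx2, and for Ccnb1 it was 0.0505 without library 20.

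Top2a, the topoisomerase that untangles replicated chromosomes, and Ect2, which drives cytokinesis, are shown by their promoters because mitotic genes often carry the cell cycle homology region, searched as TTTGAA on both strands and capitalised. The windows are chr11:99024190-99024439 (minus strand) for Top2a, with 2 matches, and chr3:27153879-27154128 (minus strand) for Ect2, with 1 match, both in GRCm38.p6.
Top2a: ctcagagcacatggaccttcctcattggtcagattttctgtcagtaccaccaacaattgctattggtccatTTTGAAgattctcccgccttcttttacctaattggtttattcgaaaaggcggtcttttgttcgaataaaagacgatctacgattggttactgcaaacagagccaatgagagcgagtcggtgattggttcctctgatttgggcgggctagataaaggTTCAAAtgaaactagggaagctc
Ect2: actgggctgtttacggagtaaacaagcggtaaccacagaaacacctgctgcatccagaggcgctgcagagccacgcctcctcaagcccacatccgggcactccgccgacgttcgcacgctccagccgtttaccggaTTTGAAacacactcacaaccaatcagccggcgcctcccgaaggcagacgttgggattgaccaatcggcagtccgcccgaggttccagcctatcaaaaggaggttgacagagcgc

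Top2a had 591 and 787 CPM at D8 and 332 and 434 CPM at D12 (log2 difference -0.85 ± 0.27; edgeR adjusted p = 0.0286). Ect2 had 67.5 and 94.2 CPM and then 44.0 and 59.6 CPM (-0.64 ± 0.21; edgeR adjusted p = 0.0302). Both genes' groups were apart, and both calls ended without D8 library 18 (edgeR adjusted p = 0.184 and 0.275) or D12 library 10 (0.196 and 0.242). TTTGAA stood in 19 of 25 windows of 23 mitosis genes (76.0%), against 11.7% of all windows. CCAAT, which the same promoters often carry, stood in 20 of the 25 (80.0%), against 37.5% of all. In the mitosis windows TTTNGCGC stood in 1 of 25 (4.0%).

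Inhibitors of the cell cycle went both ways, with 50.0% called, beside 33.5% of all genes. Of 14 genes, 5 rose, 2 fell and 7 did not pass, and 3 rose without D8 library 18 or D12 library 10. Cdkn1b (p27), which blocks cyclin E kinase, had 105 and 82.7 CPM at D8 and 159 and 154 CPM at D12 (log2 difference 0.74 ± 0.12; edgeR adjusted p = 0.000597). Rbl2 (p130), the pocket protein of resting cells, had 25.3 and 20.3 CPM and then 63.8 and 71.8 CPM (1.57 ± 0.24; edgeR adjusted p = 0.00035). Both rises separated the days completely. Rbl1 (p107), the pocket protein of dividing cells, fell by 0.88 ± 0.20 on the log2 scale, a call that ended without D12 library 10 (edgeR adjusted p = 0.0519). Cdkn1c (p57), an imprinted inhibitor of embryonic tissues, had 1173 and 447 CPM at D8 and 203 and 249 CPM at D12 (-1.84 ± 0.39; edgeR adjusted p = 0.0028). Its fall was thus opposite to the rises of Cdkn1b and Rbl2, with both D12 libraries below both D8 libraries.

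Of 15 genes of embryonic timing and imprinted growth, 7 fell, 1 rose and 7 did not pass, with a median of -0.93, and 7 or 8 fell whichever pulsed library was left out. In all, 53.3% of the list was called, beside 33.5% of all genes. The list's summed level overlapped between days, at 19912 and 27666 CPM at D8 and 27594 and 22510 CPM at D12. Lin28a, the RNA-binding protein that blocks maturation of let-7 microRNAs, had 40.7 and 100.3 CPM at D8 and 4.03 and 4.11 CPM at D12 (log2 difference -4.11 ± 0.53; edgeR adjusted p = 0.000122). Its paralogue Lin28b had 47.8 and 93.3 CPM and then 23.0 and 27.5 CPM (-1.48 ± 0.24; edgeR adjusted p = 0.000526). Both were highest in D8 library 18 and nearly equal in the D12 libraries. Igf2bp3, an oncofetal RNA-binding protein, fell by 0.99 ± 0.13 on the log2 scale (edgeR adjusted p = 9.58e-05), and Arid3a, a DNA-binding factor that is a let-7 target, by 1.48 ± 0.17 (edgeR adjusted p = 5.9e-05). Meg3, an imprinted maternal noncoding RNA and the 1 member that rose, had 631 and 502 CPM and then 1185 and 1091 CPM (1.01 ± 0.21; edgeR adjusted p = 0.00268).

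Of 20 genes that build ribosomes, 8 fell, 1 rose and 11 did not pass (45.0% called, beside 33.5% of all genes). The median was -0.36. Bop1, a factor of large-subunit assembly, had 42.7 and 51.3 CPM at D8 and 19.9 and 23.3 CPM at D12 (log2 difference -1.12 ± 0.18; edgeR adjusted p = 0.000422). Polr1b, a subunit of RNA polymerase I, fell by 1.06 ± 0.18 on the log2 scale (edgeR adjusted p = 0.000682), Ddx21 by 0.98 ± 0.20 (edgeR adjusted p = 0.00249) and Mycn, which drives growth genes, by 1.16 ± 0.23 (edgeR adjusted p = 0.00207). Without D8 library 18, 4 were lower and 3 higher, and without D12 library 10, 5 were lower and 0 higher.

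Cholesterol synthesis fell along most of its steps. Of 20 enzymes and carriers of the pathway, 15 fell (75.0%, beside 17.5% of all genes), 0 rose and 5 did not pass. The median was -0.93, and the summed levels were 6022 and 4693 CPM at D8 and 3339 and 2948 CPM at D12. At least 12 fell without any 1 of the 4 libraries. Fdps, which builds farnesyl pyrophosphate, had 176 and 134 CPM at D8 and 57.6 and 54.1 CPM at D12 (log2 difference -1.47 ± 0.19; edgeR adjusted p = 9.75e-05). Sqle, the squalene epoxidase, had 292 and 273 CPM and then 154 and 137 CPM (-0.96 ± 0.14; edgeR adjusted p = 0.000309). Nsdhl, a late step, had 146 and 108 CPM and then 41.4 and 42.5 CPM (-1.60 ± 0.19; edgeR adjusted p = 6.43e-05). In all 3 enzymes both D12 libraries were below both D8 libraries. A form of the sterol response element, TCACNCCA on either strand, stood in 3 of 17 promoter windows of 14 of these genes (17.6%), against 3.8% of all windows, and CCAAT in 14 of the 17 (82.4%).

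Glycolysis genes fell in part. Of 22, 6 fell (27.3%, beside 17.5% of all genes), 0 rose and 16 did not pass, with a median of -0.46. Slc2a1 (GLUT1), the glucose transporter of growing and fetal cells, had 792 and 446 CPM at D8 and 256 and 135 CPM at D12 (log2 difference -1.66 ± 0.36; edgeR adjusted p = 0.00322). Pfkl, a phosphofructokinase, had 679 and 403 CPM and then 193 and 116 CPM (-1.81 ± 0.54; edgeR adjusted p = 0.0195). Both were lower in each D12 library than in each D8 library, though the Pfkl call ended without D8 library 14 (edgeR adjusted p = 0.118) or D12 library 20 (0.141). Without either of these the list had 2 genes lower, and without D8 library 14 its median was 0.15. Pgam1 (-1.55 ± 0.30) and Gapdh (-1.44 ± 0.38) also fell, but Gapdh had only 1.30 to 4.77 CPM in these 4 libraries, against a mean of 1454 CPM in untreated cells at D5 and 3.97 CPM at D6. The cause of that gap was not tested, the Gapdh counts are uncertain for it, and genes with near-identical processed copies such as these are uncertain because the handling of shared reads is not given; Gapdh was lost without library 14 (edgeR adjusted p = 0.117) or 20 (0.0817).

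Fatty acid oxidation genes rose in part. Of 29, 8 rose (27.6%, beside 15.9% of all genes), 0 fell and 21 did not pass, with a median of 0.20. Slc27a1, a fatty acid transporter, had 38.0 and 28.1 CPM at D8 and 66.7 and 58.0 CPM at D12 (log2 difference 0.92 ± 0.16; edgeR adjusted p = 0.000723). Ppargc1b, a coactivator of mitochondrial genes, had 4.63 and 2.32 CPM and then 18 and 19.8 CPM (2.44 ± 0.55; edgeR adjusted p = 0.00433). These groups did not overlap, and neither call ended without any 1 library. Acadl, the long-chain acyl-CoA dehydrogenase, rose by 0.89 ± 0.22, lost without D8 library 18 (edgeR adjusted p = 0.067) or D12 library 10 (0.0713), and Ech1, of the same pathway, by 0.72 ± 0.18, lost without library 18 (0.0569). Without library 18 the list had 2 genes higher and without library 10 it had 3. Of 25 respiratory chain genes 5 rose and 0 fell (median 0.22), led by Atp5c1 of ATP synthase (260 and 199 CPM, then 404 and 367 CPM; 0.75 ± 0.16; edgeR adjusted p = 0.00347). Without library 18 or 10 the count was 1, and without library 14 it was 8. The remaining named members, Cox4i1, Uqcrc2 and Sdhd, had differences of 0.55, 0.56 and 0.63 and lost their calls without library 18 (edgeR adjusted p = 0.0685, 0.127 and 0.168) or 10 (0.104, 0.103 and 0.193).

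ATF4 is the transcription factor that cells raise when amino acids run short or proteins misfold, and it drives amino acid transport, serine and one-carbon enzymes. Of 20 genes in the list, 10 rose (50.0%, beside 15.9% of all genes), 0 fell and 10 did not pass, 4 of them with an estimate below 0. The median was 1.17, and the summed levels were 646 and 637 CPM at D8 and 1129 and 1245 CPM at D12. The count was 6 to 9 without 1 pulsed library and 6 by limma-voom. Atf4 itself, chosen after its values were seen, had 95.8 and 111 CPM at D8 and 229 and 242 CPM at D12 (log2 difference 1.19 ± 0.25; edgeR adjusted p = 0.00273). Ddit3 (CHOP), a factor of prolonged stress, had 10.5 and 7.72 CPM and then 71.4 and 68.5 CPM (2.94 ± 0.47; edgeR adjusted p = 0.000492). The replicates of Ddit3 were close at both days. Slc3a2, the heavy chain of amino acid transporters, had 67.6 and 76.5 CPM and then 187 and 185 CPM (1.37 ± 0.18; edgeR adjusted p = 0.000118), and its light chain Slc7a5 22.9 and 33.4 CPM and then 74.2 and 91.1 CPM (1.55 ± 0.31; edgeR adjusted p = 0.00196). Mthfd2, a mitochondrial one-carbon enzyme, rose by 1.15 ± 0.24 (edgeR adjusted p = 0.00257).

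The promoters of Fgf21, a secreted hormone of stress and fasting, and of Chac1, which degrades glutathione, are shown for TGATGNAA, the amino acid response element bound by ATF4 with its partners, which is in capitals on either strand. The windows in GRCm38.p6 are chr7:45615491-45615740 (minus strand) for Fgf21 and chr2:119350992-119351241 (plus strand) for Chac1, each with 1 match.
Fgf21: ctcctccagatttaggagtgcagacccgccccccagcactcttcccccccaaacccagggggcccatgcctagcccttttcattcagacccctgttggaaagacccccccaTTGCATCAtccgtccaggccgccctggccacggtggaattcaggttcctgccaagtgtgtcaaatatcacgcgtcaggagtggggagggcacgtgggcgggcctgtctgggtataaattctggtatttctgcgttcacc
Chac1: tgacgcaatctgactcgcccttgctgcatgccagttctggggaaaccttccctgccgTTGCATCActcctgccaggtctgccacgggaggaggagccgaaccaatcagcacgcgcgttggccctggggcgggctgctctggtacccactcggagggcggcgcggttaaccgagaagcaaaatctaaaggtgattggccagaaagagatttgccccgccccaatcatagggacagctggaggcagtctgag

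Fgf21 had 1 count over both D8 libraries and 52 over both D12 libraries, a ratio of 56.7 after scaling (exact 95% interval 9.75 to 2284, for counting error only), and it passed the test (edgeR adjusted p = 0.00707). Chac1 had 0.370 and 0.545 CPM at D8 and 4.71 and 4.34 CPM at D12 (log2 difference 3.29 ± 0.87; edgeR adjusted p = 0.0104), a call that ended without D8 library 14 (edgeR adjusted p = 0.0663). Both were low at D8 and higher in each D12 library. The element stood in 7 of 20 windows of 17 genes of the list (35.0%), against 2.25% of all windows.

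**Figure D3:**
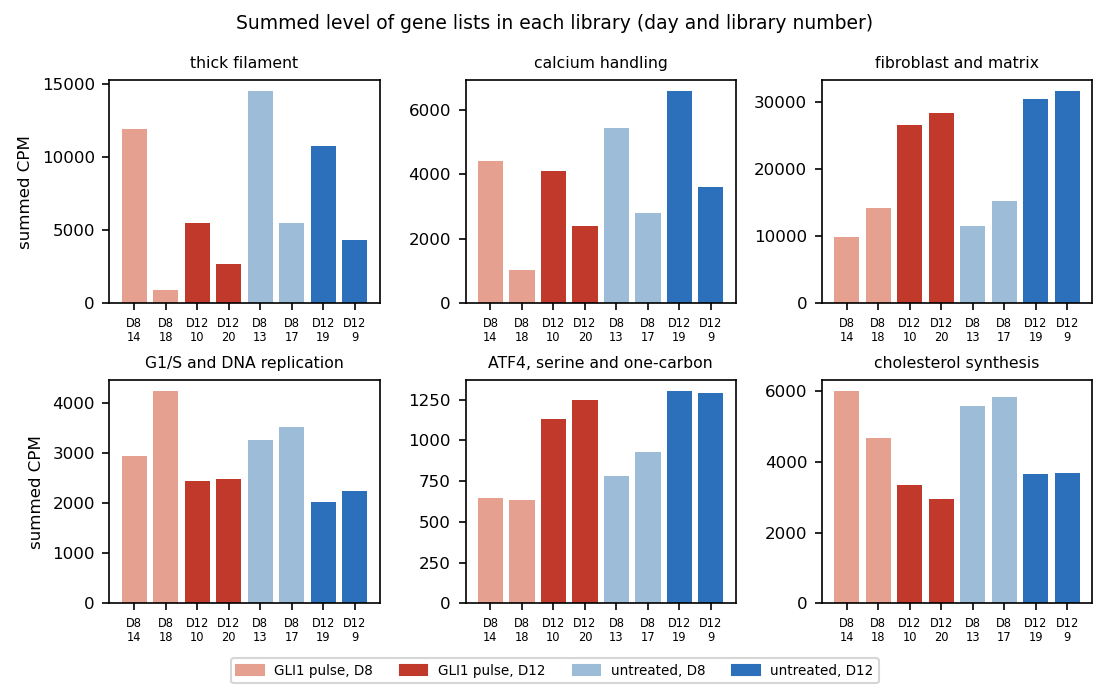
Summed CPM of 6 gene lists in each pulsed (red) and untreated (blue) library at D8 and D12, 1 bar per library. The thick filament sum ranges most widely between D8 libraries 14 and 18, the calcium handling sum also differs between them, and the matrix, ATF4 and cholesterol sums separate D8 from D12 in pulsed and in untreated cells.

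None of the 7 cardiomyocyte markers and none of 12 thin filament genes passed by edgeR, DESeq2 or limma-voom. At an unadjusted p under 0.05 (edgeR) the count was 0 in both lists. Of 12 thick filament genes 1 rose (8.33%) and of 14 Z-disc genes 1 rose (7.14%), beside 15.9% of all genes. Without D8 library 14, 1 thin filament, 2 thick filament and 3 Z-disc genes were higher, and without D8 library 18, 1 cardiomyocyte marker was lower. The thick filament median was -0.29, but 2.36 without D8 library 14 and -1.12 without D8 library 18. Myh6, the alpha heavy chain of adult mouse heart, had 3218 and 205 CPM at D8 and 2347 and 1098 CPM at D12 (log2 difference 0.01 ± 1.12; edgeR adjusted p = 0.997). The D8 libraries enclosed the D12 libraries, as they did for Actc1, cardiac actin, at 2716 and 371 CPM and then 1336 and 620 CPM (-0.66 ± 0.88; edgeR adjusted p = 0.595). Myl7, the atrial light chain, had 1950 and 143 CPM and then 593 and 320 CPM (-1.20 ± 0.93; edgeR adjusted p = 0.345). Myom2, the M-protein of mature sarcomeres, was the exception among thick filament genes, with 1.62 and 1.18 CPM at D8 and 42.6 and 45.5 CPM at D12 (4.97 ± 0.85; edgeR adjusted p = 0.000731). Its values were close within each day although the D8 libraries differed in the other markers. Myoz2, a calsarcin of the Z-disc, rose by 3.23 ± 1.11, lost without D8 library 18 (edgeR adjusted p = 0.178) or D12 library 10 (0.154).

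Ratios of 2 genes within a library cancel whatever scales both genes alike. They were compared between libraries only, since CPM is not corrected for gene length. The log2 ratio of Myh7, the fetal beta heavy chain, over Myh6 was -0.41 and -0.53 at D8 and -2.75 and -2.19 at D12, so the D12 libraries were lower by 2.0 on average and apart from D8. Tnni3, the adult troponin I, over Tnni1, the fetal form, went from -3.85 and -4.27 to -1.55 and -1.58. The ratio of Myl2, the ventricular light chain, over Myl7 went from -3.00 and -2.53 to -1.28 and -1.80. D8 libraries 14 and 18 were close in all 3 ratios, and none of these ratios overlapped between days. Slc2a4 (GLUT4), the insulin-dependent glucose transporter, over Slc2a1 rose from -3.78 and -3.37 to -2.41 and -1.32. Slc2a4 itself did not pass (log2 difference 0.02 ± 0.21, edgeR adjusted p = 0.944), so this ratio moved with the fall of Slc2a1. Slc2a1 was the only gene of the 6 pairs that was called on its own. Acta1, skeletal actin, over Actc1 was lower at D12, at -5.77 and -6.06 against -5.66 and -4.74. The ratio of the muscle cytochrome oxidase subunit gene Cox7a1 over Cox7a2 overlapped between days (-2.33 and -4.96, then -2.35 and -3.59). Exact permutation of 2 libraries against 2 cannot give a two-sided p under 0.333, and no other test of these ratios was run. Untreated cells had Myh7 over Myh6 at -0.07 and -1.08 at D8 and -2.19 and -3.07 at D12, and Tnni3 over Tnni1 at -2.26 and -2.89 and then -1.22 and -1.09.

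**Figure D4:**
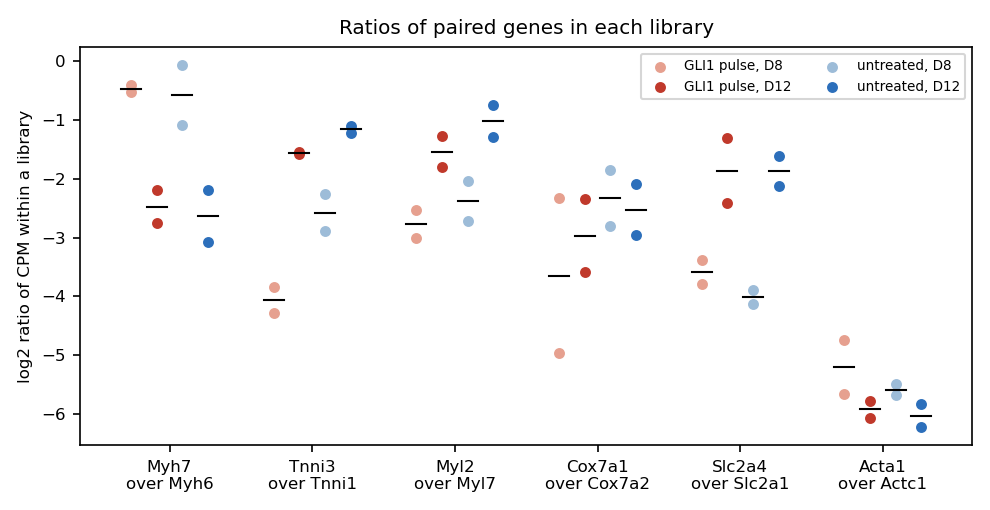
Log2 ratio of CPM between 2 genes within each library (y axis) for 6 gene pairs, 1 point per library and a bar at the group mean, in pulsed (red) and untreated (blue) cells. Myh7 over Myh6 is lower and Tnni3 over Tnni1 higher at D12 in both, and Cox7a1 over Cox7a2 overlaps between days.

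Of 17 calcium handling genes, 3 rose (17.6%, beside 15.9% of all genes), 0 fell and 14 did not pass, with a median of 0.75 that was 1.75 without D8 library 14 and 0.25 without D8 library 18. Casq2, the calcium buffer of the cardiac sarcoplasmic reticulum, had 0.740 and 0.727 CPM at D8 and 52.4 and 13 CPM at D12 (log2 difference 5.47 ± 0.92; edgeR adjusted p = 0.000679). Cacna2d1, an auxiliary subunit of the L-type channel, had 32.3 and 29.7 CPM and then 54.0 and 63.2 CPM (0.92 ± 0.19; edgeR adjusted p = 0.00231). Both were nearly equal in the D8 libraries and higher in each D12 library. Sln, the atrial regulator of the calcium pump, had 3 counts over the D8 libraries and 46 over the D12 libraries, a ratio of 16.7 (exact 95% interval 5.38 to 84.1), and lost its call without D8 library 18 (edgeR adjusted p = 0.103) or D12 library 20 (0.0839). Without D8 library 14, 8 of the 17 rose, and without D8 library 18, 2 rose.

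Of 18 ion channel and connexin genes, 3 rose and 3 fell (33.3%, beside 33.5% of all genes). Without D8 library 14, 5 rose and 1 fell, and without D12 library 20, 2 rose and 1 fell. Cacna1g, the T-type calcium channel of pacemaker and fetal cells, had 22.3 and 26.2 CPM at D8 and 66.5 and 116 CPM at D12 (log2 difference 1.91 ± 0.35; edgeR adjusted p = 0.00124). Gjc1, connexin 45 of the early heart tube, had 136 and 105 CPM and then 49.0 and 57.2 CPM (-1.18 ± 0.16; edgeR adjusted p = 0.000191). They changed in opposite directions, each without overlap. Hcn4, the pacemaker channel, had 30.2 and 19.4 CPM and then 10.7 and 6.97 CPM (-1.49 ± 0.45; edgeR adjusted p = 0.0221), lost without D8 library 14 (edgeR adjusted p = 0.136) or D12 library 20 (0.157). Kcnj3, an atrial potassium channel, had 3 counts at D8 and 37 at D12, a ratio of 13.5 (exact 95% interval 4.26 to 68.2), lost without libraries 14, 18 or 10 (edgeR adjusted p = 0.0750, 0.126 and 0.0931).

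Of 12 atrial genes 3 rose, and of 10 ventricular genes 1 rose, beside 15.9% of all genes, with none falling. Without D8 library 18 no gene of either list rose, and without D12 library 10, 1 atrial and 0 ventricular genes rose. The atrial rises included Sln and Kcnj3, each with 3 counts over the D8 libraries. Sln is also counted in the calcium handling list and Kcnj3 in the ion channel list. Nppa, the atrial natriuretic peptide, had 10.9 and 20.1 CPM at D8 and 414 and 122 CPM at D12 (log2 difference 4.11 ± 1.47; edgeR adjusted p = 0.0445). Nppb, the second natriuretic peptide, had 1.34 and 1.63 CPM and then 34.6 and 9.83 CPM (3.89 ± 1.41; edgeR adjusted p = 0.0469). Both D12 libraries lay above both D8 libraries in each, and library 10 was above library 20. Both calls ended without library 14, 18 or 10 (edgeR adjusted p = 0.176, 0.125 and 0.199 for Nppa and 0.165, 0.156 and 0.230 for Nppb). Of 10 genes of creatine, oxygen and muscle mitochondria 1 rose (beside 15.9% of all genes), namely Mb, the muscle oxygen store myoglobin. It had 22.3 and 1.59 CPM and then 214 and 76.7 CPM (3.61 ± 1.08; edgeR adjusted p = 0.0198), lost without D8 library 18 (0.0888) or D12 library 10 (0.118). Without D8 library 14, 4 of these 10 rose.

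Among 19 core cardiac transcription factors, 1 rose and 2 fell (15.8%, beside 33.5% of all genes). Without D8 library 14, 3 rose and 0 fell, and without D8 library 18, 1 rose and 6 fell. Mef2a, a MADS-box factor of postnatal heart, had 75.0 and 44.2 CPM at D8 and 140 and 113 CPM at D12 (log2 difference 1.09 ± 0.20; edgeR adjusted p = 0.0011). Mef2c, its relative in early heart, had 461 and 114 CPM and then 111 and 106 CPM (-1.40 ± 0.47; edgeR adjusted p = 0.0335), and Gata5 177 and 33.0 CPM and then 26.4 and 22.6 CPM (-2.10 ± 0.69; edgeR adjusted p = 0.0318). The falls of both rested on D8 library 14: without it the differences were -0.03 and -0.40 (edgeR adjusted p = 0.957 and 0.673). They also ended without library 10 (0.123 and 0.119) or 20 (0.139 and 0.145). The list's median was -0.49, and 0.72 without library 14.

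Progenitor genes of the second heart field, the source of the outflow tract and much of the atria, mostly did not pass. The share that fell was 9.52%, beside 17.5% of all genes. Of 21, 2 fell and 0 rose, and without D8 library 18, 2 fell and 2 rose. Fgf8, a growth factor of these progenitors, had 183 counts over the D8 libraries and 2 over the D12 libraries, 83.8-fold higher at D8 (exact 95% interval 22.9 to 698; edgeR adjusted p = 0.00184). Isl1, their defining homeobox factor, had 60.6 and 31.1 CPM and then 16.5 and 23.1 CPM (log2 difference -1.21 ± 0.44; edgeR adjusted p = 0.0483). Each was lower in both D12 libraries, but the Isl1 call ended without libraries 14, 10 or 20 (edgeR adjusted p = 0.376, 0.238 and 0.0902).

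Hedgehog target genes mostly did not pass. Of 15, 3 fell (beside 17.5% of all genes) and 0 rose, with 14 estimates below 0 and a median of -1.42. Without D8 library 14, 7 fell and the median was -2.22. Without D8 library 18, 2 fell, 2 rose and the median was 0.04. Hsd11b2, which inactivates glucocorticoids, had 86.0 and 146 CPM at D8 and 14.3 and 11.1 CPM at D12 (log2 difference -3.19 ± 0.47; edgeR adjusted p = 0.00028). It fell without overlap, and untreated cells had a difference of -4.07 for the same gene. Foxl1, a mesenchymal forkhead factor, fell by 2.01 ± 0.55, lost without library 18 (edgeR adjusted p = 0.0992) or 10 (0.0999). Ptch1, the main receptor, chosen after its values were seen, had 39.7 and 105 CPM at D8 and 41.5 and 44.6 CPM at D12 and did not pass.

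Of 18 components of the pathway, 3 rose and 3 fell (33.3%, beside 33.5% of all genes). Without D8 library 18 or D12 library 10, 1 fell. Gas1, a co-receptor that presents Hedgehog ligand, had 22.1 and 36.6 CPM at D8 and 116 and 179 CPM at D12 (log2 difference 2.33 ± 0.31; edgeR adjusted p = 0.000153). Kif3a, a motor subunit that builds the primary cilium in which the signal is read, rose by 0.66 ± 0.11 (edgeR adjusted p = 0.000596). Gpr161, a ciliary receptor that restrains the pathway, had 11.6 and 14.6 CPM and then 3.98 and 6.35 CPM (-1.34 ± 0.28; edgeR adjusted p = 0.00239). The days did not overlap for these 3 genes. Ift88, a cilium transport protein, fell by 0.48 ± 0.16, lost without library 18 (edgeR adjusted p = 0.280) or 10 (0.255).

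Markers of some other cell types moved over the same days. The part of other cell types in the results above was not tested. Among fibroblast and matrix genes 13 of 24 rose (54.2%, beside 15.9% of all genes) and 0 fell, with a median of 1.55. The list summed to 9891 and 14255 CPM at D8 and 26524 and 28414 CPM at D12. Between 9 and 12 rose without 1 pulsed library. Col6a1, a chain of collagen VI, had 62.1 and 103 CPM at D8 and 386 and 831 CPM at D12 (log2 difference 2.88 ± 0.35; edgeR adjusted p = 7.53e-05), and Col6a2, its partner chain, 68.8 and 100.1 CPM and then 276 and 591 CPM (2.36 ± 0.41; edgeR adjusted p = 0.000782). Lox had 2.45 and 7.31 CPM and then 110 and 122 CPM (4.56 ± 0.66; edgeR adjusted p = 0.000257), and Sparc, a collagen-binding protein, 907 and 1069 CPM and then 3186 and 2350 CPM (1.49 ± 0.26; edgeR adjusted p = 0.000859). All 4 were higher in each D12 library than in each D8 library, as were 21 of the 24, beside 31.0% of all genes. Fap, a protease of activated fibroblasts that was chosen after its values were seen, had 1 count over the D8 libraries and 391 over the D12 libraries, a ratio of 427 (exact 95% interval 76.1 to 16896).

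Smooth muscle genes gave 2 rises among 12 (16.7%, beside 15.9% of all genes). These were Smtn (66.6 and 74.2 CPM, then 141 and 174 CPM) and Mylk (3.01 and 13 CPM, then 29.1 and 59.4 CPM), both of the contractile apparatus. Mylk lost its call without library 14 (edgeR adjusted p = 0.0676) or 20 (0.0785). The list summed to 3022 and 2150 CPM at D8 and 2491 and 1847 CPM at D12. Epicardial genes gave 2 rises among 13 (15.4%, beside 15.9% of all genes) and summed to 93.0 and 252.9 CPM and then 210.8 and 311 CPM. Their median was 0.90. Without D8 library 18 it was 3.51, with 6 higher, and without D8 library 14 it was 0.61, with 1 higher and 1 lower. The 2 were Msln, mesothelin (1 count at D8 and 66 at D12; ratio 72.0, exact 95% interval 12.5 to 2887), and Aldh1a1, a retinal dehydrogenase (1 count and 161 counts; ratio 176, exact 95% interval 31.1 to 6982), the latter lost without library 14 (edgeR adjusted p = 0.0544). None of 18 endothelial genes passed edgeR's threshold (at an unadjusted p under 0.05, 0; DESeq2 0, limma-voom 1). Their sum was 941 and 1458 CPM and then 1238 and 1514 CPM, and Eng, a co-receptor of vascular cells, had 187 and 243 CPM and then 406 and 488 CPM (log2 difference 1.06 ± 0.52; edgeR adjusted p = 0.13).

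Among red cell genes 3 of 11 fell (27.3%, beside 17.5% of all genes). The summed level of the list was 107 and 60.3 CPM at D8 and 15.4 and 12.1 CPM at D12. Besides Hbb-y, Slc4a1, the red cell anion exchanger, had 137 counts over the D8 libraries and 1 over the D12 libraries (126-fold higher at D8, exact 95% interval 22.2 to 4994), and Alas2, the heme synthesis enzyme of red cells, 103 and 2 (47.2-fold, exact 95% interval 12.7 to 395). No call of this list was made without D12 library 10 or without D12 library 20. Slc4a1 then had edgeR adjusted p = 0.0716 and 0.0501 and Alas2 0.104 and 0.199, and Alas2 was also lost without library 14 (0.130) or 18 (0.0517). The adult globin Hba-a1 is listed at 0 in all 4 libraries, which is uncertain because it has a near-identical copy and the handling of shared reads is not given.

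Macrophage and leukocyte genes were at trace levels and 4 of 11 rose (1 without library 14, 18 or 20), with a list sum of 7.59 and 10.4 CPM at D8 and 14.7 and 22.4 CPM at D12. Tyrobp, a signalling adaptor of myeloid cells, had 0 counts at D8 and 31 over the D12 libraries, at least 11.3-fold higher if the D8 group is given a floor of 3 counts in all (edgeR adjusted p = 0.0029). Ptprc (CD45), the defining leukocyte marker, had 0 counts and then 12, at least 4.37-fold higher. The complement gene C1qc had 1 and 28 (ratio 30.6, exact 95% interval 5.05 to 1249), and Lyz2, lysozyme, 0.231 and 0.0908 CPM and then 0.965 and 0.939 CPM. Both members of each pair of D12 libraries were above D8, at low counts. The 4 of 11 that rose were 36.4%, beside 15.9% of all genes. The median of the list was 2.39, and 2.13 with the genes at 0 set to their bound. Ptprc, C1qc and Lyz2 lost their calls without library 14 (edgeR adjusted p = 0.0782, 0.0858 and 0.0609), library 18 (0.0844, 0.165 and 0.188) or library 20 (0.234, 0.230 and 0.0865), and Lyz2 also without library 10 (0.103).

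Few genes of other lineages passed. Not called were 7 of 9 neural, 12 of 15 endoderm and epithelial, and 7 of 8 paraxial and skeletal muscle genes. The share called was thus below the 33.5% of all genes in each of these lists. Of 9 neural genes, Stmn2, a microtubule regulator of neurons, rose from 0.555 and 3.36 CPM to 22.1 and 31.5 CPM (log2 difference 3.77 ± 0.71; edgeR adjusted p = 0.00135), and Dcx fell by 1.70 ± 0.57, lost without libraries 14, 18 or 10 (edgeR adjusted p = 0.0971, 0.0781 and 0.211); the defining neurogenic factors Neurog1 and Neurod1 were at 0 in all 4 libraries. Of 15 endoderm and epithelial genes, the keratin genes Krt8 (67.9 and 126 CPM, then 30.3 and 13.5 CPM; -2.15 ± 0.38; edgeR adjusted p = 0.000888) and Krt18 fell, the latter lost without library 18 (edgeR adjusted p = 0.275) or 20 (0.207). Afp, alpha-fetoprotein of yolk sac and liver, had 0.0463 and 0.182 CPM at D8 and 0.114 and 14.5 CPM at D12. It passed through library 20 alone: without it the difference was 0.02 (edgeR adjusted p = 0.999), and it was lost without library 14 (0.107) or 18 (0.0751) too. Myog, the muscle differentiation factor, was the 1 of 8 paraxial and skeletal muscle genes to rise, from 0.185 and 0 CPM to 2.21 and 2.01 CPM, lost without library 10 (edgeR adjusted p = 0.0576).

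Of 8 pluripotency genes 3 fell and 1 rose (50.0% called, beside 33.5% of all genes). Tdgf1 led the falls, with values given above, and Tet1, a DNA hydroxylase, fell by 0.79 ± 0.21 and Klf2 by 2.24 ± 0.62 on the log2 scale. Klf4 rose from 7.54 and 8.99 CPM to 17.7 and 17.2 CPM (1.08 ± 0.34; edgeR adjusted p = 0.0238). The Tdgf1 call held without any 1 library. Those of Tet1 (without library 14 or 10; edgeR adjusted p = 0.0669 and 0.106), Klf2 (without 18, 10 or 20; 0.0561, 0.0512 and 0.103) and Klf4 (without 14, 18, 10 or 20; 0.104, 0.0558, 0.0927 and 0.0586) did not. None of 32 HOX genes, which set position along the body axis, passed edgeR's threshold (1 at an unadjusted p under 0.05; 0 by DESeq2 and 0 by limma-voom), with a median of 0.98 that was 3.16 without D8 library 18 and 0.33 without library 14. Hoxb2, the most abundant of them, had 14 and 27.4 CPM and then 22.4 and 29.8 CPM.

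The last question is whether these days passed differently in pulsed and untreated cells. Between the same days 5411 of 14892 genes (36.3%) passed in untreated cells, 2521 higher and 2890 lower. Genes that passed in both and in the same direction numbered 4052, which is 81.3% of the pulsed and 74.9% of the untreated calls, and 0 passed in opposite directions. The log2 fold changes of pulsed and untreated cells correlated at r = 0.79 across genes, which are not independent replicates; the 2 comparisons share no library, but they share the fit's estimate of spread. The test of the difference between the 2 changes called 0 genes (0%) in edgeR, with a smallest adjusted p of 0.9999 and 355 genes at an unadjusted p under 0.05. DESeq2 and limma-voom also called 0. The median SE of that difference was 0.34 on the log2 scale, so small differences were not detectable with 2 libraries a group. Large ones could also be missed, since a difference of 3.20 ± 0.79 (Matn4, described below) did not pass. The 0 calls thus set no narrow limit on how far the changes differ.

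List medians in the 2 kinds of cell are given side by side, with no test of the difference over a list. Replication genes had a median of -1.30 in pulsed and -1.46 in untreated cells, mitosis genes -0.80 and -1.02, cholesterol genes -0.93 and -0.89, matrix genes 1.55 and 1.79, and ATF4 genes 1.17 and 0.75. Among the lists that lay further apart, Hedgehog targets had -1.42 and -0.25 and paraxial and skeletal muscle genes 0.30 and -0.68. Second heart field genes had -0.05 and -0.80, ion channel genes 0.45 and -0.17, and Z-disc genes -0.28 and 0.23. These pulsed medians moved with single libraries. Without D8 library 18, Hedgehog targets had 0.04, second heart field genes 0.08 and ion channel genes 0.03. Z-disc genes had 1.49 without D8 library 14, and paraxial and skeletal muscle genes -0.45 without D12 library 20. Mitosis genes passed in 13 of 28 in pulsed and 23 of 28 in untreated cells, beside 33.5% and 36.3% of all genes. Respiratory chain genes rose in 5 and 0 of 25, beside 2374 and 2521 of all 14892 genes. In both lists 0 members passed the test of the difference. Lin28a fell by 4.98 on the log2 scale in untreated cells, Ddit3 rose by 2.91 and Casq2 by 4.78.

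**Figure D5:**
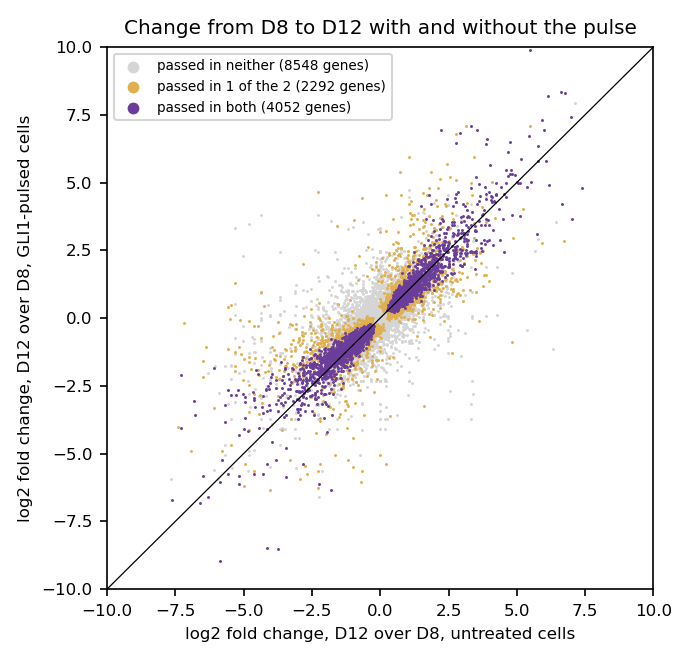
Log2 fold change from D8 to D12 of each tested gene in untreated cells (x axis) and in GLI1-pulsed cells (y axis), coloured by whether it passed an edgeR adjusted p of 0.05 in both (4052 genes), in 1 (2292) or in neither (8548); the line marks equal change. No gene passed in both with opposite signs.

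The genes with the smallest unadjusted p for the difference, none of which passed, show its scale. Matn4, a matrix protein that links fibrils, had 0.139 and 0.227 CPM at D8 and 1.93 and 2.86 CPM at D12 in pulsed cells, and 0.531 and 0.959 CPM and then 1.06 and 1.01 CPM in untreated cells. The difference of the changes was 3.20 ± 0.79 (SE, log2 scale; edgeR adjusted p = 0.9999). Tgfb2, a growth factor of heart cushions, had 381 and 321 CPM and then 213 and 210 CPM in pulsed cells, and 244 and 208 CPM and then 253 and 207 CPM in untreated cells (-0.76 ± 0.20; edgeR adjusted p = 0.9999). Tgfb2 overlapped between pulsed and untreated D12 libraries, and the pulsed D8 libraries were the highest of the 8. Fam178a (-0.86 ± 0.22), Fam174b (-1.78 ± 0.51) and the predicted gene 4930513N10Rik (1.83 ± 0.43) were at the same adjusted p. So was Trpm6, a magnesium channel with 2 counts over the pulsed D8 libraries and 8 over the pulsed D12 libraries.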

How the data were processed

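The authors deposited raw read counts per gene symbol for 18 polyA libraries (50-base single reads, per the labels). Which aligner, counter, strand setting and genome build lie behind them is not given in the sources used here. Columns carry day, condition and a library number, and were assigned to groups by the first 2. Counts were analysed with edgeR 4.0.16 in R 4.3.3: expression filter (minimum count 10; 14892 of 23337 genes), TMM scaling, robust quasi-likelihood fit of 1 coefficient per group to all 18 libraries, Benjamini-Hochberg adjustment over all tested genes, threshold 0.05. CPM are counts scaled by edgeR to the TMM library size. DESeq2 1.42.0, limma-voom (limma 3.58.1), RLE, upper-quartile and library-size scaling, other filters, smaller fits and leaving out each library were alternatives. The fit was tested on simulated data drawn with its own estimates of level and spread. Such data cannot check the estimate of spread itself, and no result here rests on that test.

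The comparison and the 34 gene lists (579 symbols, 535 tested; 6 found under older names) were chosen with earlier results of these data known. Genes were named by a rule: Gli1; the 12 largest rises and 12 largest falls among called genes with mean log2 CPM of at least 1 and groups that do not overlap, without predicted names; up to 4 called members of each list by adjusted p, or the most abundant; members of 6 ratio pairs; and the 3 genes each way with the smallest p for the difference between pulsed and untreated change. A few genes that the rule named are not reported here. Promoters are from the RefSeq table of assembly GRCm38.p6, which held 10480 tested genes; those shown were the 2 called members of a list with the smallest adjusted p that had a match, picked after the motifs were searched. Where a group held 0 counts a fold is a bound against 3 counts over the group, and with 1 to 3 counts it is a ratio with an exact 95% interval. Both cover counting error only.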

Additional observations from a re-analysis of the deposited data

How the results depend on the processing

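The count of genes changed from D8 to D12 in pulsed cells was 4985 (2374 higher, 2611 lower), and a fit on the 4 libraries alone called 0 (0 higher and 0 lower), where fewer samples gave the spread; the 4886 of those genes tested there all kept their direction, and 3937 had an unadjusted p under 0.05. Leaving out 1 pulsed library gave 3086 to 4167 genes, with 1524 to 2056 higher and 1562 to 2111 lower, the lowest without D12 library 10. For untreated cells the count of 5411 became 3492 to 3900, with 3492 without D8 library 17 and 3599 without D12 library 19. Genes called in both numbered 2639 to 3415 with 1 of the 8 libraries left out. DESeq2 called 5499 genes, limma-voom 4986, RLE scaling 4950, no count filter 4638, a count minimum of 50 gave 4760 and the fit on 8 libraries 3802. Of the 107 named genes that passed, 105 did so with DESeq2, 94 with limma-voom, 91 in the fit on 8 libraries, 0 of the 104 tested in the fit on 4, and 77 to 87 with 1 pulsed library left out; none changed direction in these. Of the 168 list members that passed, 84 did so whichever single pulsed library was left out. The difference between pulsed and untreated change called 0 genes in every alternative run. Median list values of the smooth muscle genes (0.10) and of the Hedgehog components (0.05) changed sign with library-size scaling (-0.01 and -0.06), the latter also with upper-quartile scaling (-0.02) and no count filter (-0.03). With limma-voom the medians of thick filament (-0.29), Z-disc (-0.28), ventricular (-0.02) and pluripotency genes (-0.57) became 0.33, 0.07, 0.69 and 0.23. That of pluripotency genes was 0.45 with no count filter, and that of endoderm genes (0.63) was -0.05 at a count minimum of 50. The cause was not tested. No paired analysis was possible because the count columns carry library numbers and no replicate number of the labels.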
